A study of Schizosaccharomyces pombe with 8 samples.

Results

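The genes described here encode proteins of the cytosolic ribosome of the fission yeast Schizosaccharomyces pombe. They are 60 listed gene identifiers, all of which were found among the 7014 genes of the table of reads from an Lsm8 immunoprecipitation (IP) and a control IP. Another 81 genes with ribosomal protein symbols were not listed and served for comparison. In the genome annotation, all 60 members are named as ribosomal proteins, 30 of the 40S (small) and 30 of the 60S (large) subunit, so the label fitted each of them.

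The study sequenced RNA that co-purified with Lsm8-cMyc, from a strain whose lsm8 gene carries a myc13 tag, and RNA from a control IP whose strain is not named. Each IP is 1 library of 40-base unstranded reads. The study also compared 3 RNA-Seq libraries of pof8Δ cells (pof8::kanMX6, strain PP1723) with 3 of pof8+ cells (strain PP138). Both of these strains were grown in YES rich medium, and like the tagged strain they are of mating type h- with the alleles his3-D1, ura4-D18, leu1-32 and ade6-M216. Nothing in the sources says whether the 3 libraries of a genotype came from separate cultures, so p-values measure only the spread between these libraries.

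A cytosolic ribosome joins a small subunit, which decodes the mRNA, with a large subunit, which forms peptide bonds. Its proteins are made from some of the most abundant mRNAs of a growing yeast cell, and in fission yeast many of them are encoded by pairs of similar genes. Lsm8 is the subunit that sets the nuclear Lsm2-8 ring apart from the cytoplasmic Lsm1-7 ring. The Lsm2-8 ring binds the 3' end of U6, the spliceosomal RNA, whereas mRNAs of ribosomal proteins are not among its classical ligands. Transcription of ribosomal protein genes in fission yeast is known to use the promoter elements HomolD and HomolE.

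The promoters of the members were searched for HomolD (CAGTCACA) and the core of HomolE (ACCCTACCC) on both strands, from 250 bases before to 50 bases after the annotated transcript start in the RefSeq assembly ASM294v3. The stretches from 90 to 31 bases before the start are shown 5' to 3' on the strand of the gene for the 4 members with the lowest and the 4 with the highest ratio between the IPs, since these stand at the ends of the order described next. Capitals mark HomolD or HomolE in either orientation (TGTGACTG and GGGTAGGGT are their reverse complements).
rpl2701 (SPBC685.07c, chromosome II, 2780695 to 2780754, minus strand): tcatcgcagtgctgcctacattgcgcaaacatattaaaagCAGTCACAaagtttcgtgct
rpl2402 (SPCC330.14c, chromosome III, 138597 to 138656, minus strand): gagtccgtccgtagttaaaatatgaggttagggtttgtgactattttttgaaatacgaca
rps102 (SPAC22H12.04c, chromosome I, 898993 to 899052, minus strand): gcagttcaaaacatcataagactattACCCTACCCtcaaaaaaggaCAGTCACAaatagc
rpl2802 (SPCC5E4.07, chromosome III, 656535 to 656594, plus strand): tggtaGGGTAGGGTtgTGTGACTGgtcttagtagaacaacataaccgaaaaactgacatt
rps27 (SPBC1685.10, chromosome II, 517231 to 517290, plus strand): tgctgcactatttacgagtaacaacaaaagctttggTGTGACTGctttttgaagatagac
rpl42 (SPAC15E1.03, chromosome I, 3722367 to 3722426, plus strand): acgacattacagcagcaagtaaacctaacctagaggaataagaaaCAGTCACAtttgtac
rpl3002 (SPAC1250.05, chromosome I, 5095910 to 5095969, minus strand): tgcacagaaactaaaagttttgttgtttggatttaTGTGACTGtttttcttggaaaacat
rps1401 (SPAC3H5.05c, chromosome I, 3436154 to 3436213, plus strand): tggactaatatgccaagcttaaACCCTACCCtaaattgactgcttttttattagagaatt

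HomolD was found in the promoters of 41 of 60 members (68.3%), of 48 of 81 other cytosolic ribosomal protein genes (59.3%) and of 48 of 4964 other protein-coding genes (0.967%). Over all 5105 protein-coding genes with a promoter window, 2.68% held it. In the 41 members, the first base of the HomolD nearest the transcript start lay between 74 and 43 bases before that start, with a median of 51. It stood as written in 26 and as the reverse complement in 15. HomolE was found in 20 members (33.3%), against 1.31% of all protein-coding genes, at a median of 71 bases before the start. Both elements occurred together in 13 members, and 12 had neither. HomolD was present in 20 small and 21 large subunit members of 30 each, and HomolE in 12 small and 8 large subunit members. Genes for mitochondrial ribosomal proteins held HomolD in 0 of 59 windows and HomolE in 1. A match is a description of the letters in these windows and was not tested for function.

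**Figure D1:**
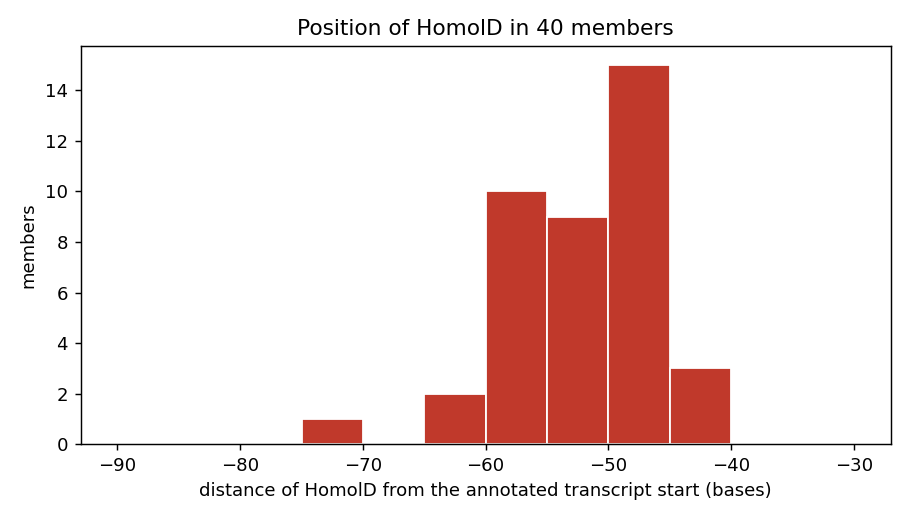
Histogram of the distance, in bases, from the first base of HomolD to the annotated transcript start (x axis, negative values upstream) for 40 members that hold it, with the number of members on the y axis. All plotted positions lie between 74 and 44 bases before the start.

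In the RIP-Seq data, a gene's reads in each IP were divided by the median over genes with at least 1 read, which was 108 Lsm8 IP reads and 43 control IP reads, and the ratio of the scaled reads was taken. The Lsm8 IP held 6604836 reads in genes and the control IP 942080. U6 (snu6), the RNA known to be bound by the Lsm2-8 ring, had 1131410 Lsm8 IP reads and 14329 control IP reads. Its ratio was 31.4 (95% interval 30.9 to 32.0), as the label of the Lsm8 IP implies. Together, U4 and U6 accounted for 70.0% of Lsm8 IP reads and 1.83% of control IP reads. With 1 library for each IP there is no replicate check, no test was made, and the intervals (exact Clopper-Pearson, 95%) cover counting error only.

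Ribosomal protein mRNAs were scarce in the Lsm8 IP relative to the control IP. The median ratio of the 60 members was 0.325 (log2 ratio -1.62), beside 0.876 (log2 ratio -0.19) for 4582 other protein-coding genes with at least 10 control reads. All members passed this minimum of 10 control reads. A ratio below 0.5 was seen in 45 of 60 members (75%), whereas the background over all 4642 protein-coding genes was 17.4%. Only 4 members had a ratio above 1, namely rps27, rpl42, rpl3002 and rps1401. Ratios above 2 were seen in 2 members, against a background of 10.3%. Enrichment by the thresholds of the study (scaled reads higher by 10 or more, ratio above 2) was reached by 1 member, rps1401, against a background of 0.345%. The thresholds were applied to the scaling used here, which differs from that of the deposited values (divisors 96 and 37). With those divisors, 1 member was enriched as well.

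**Figure D2:**
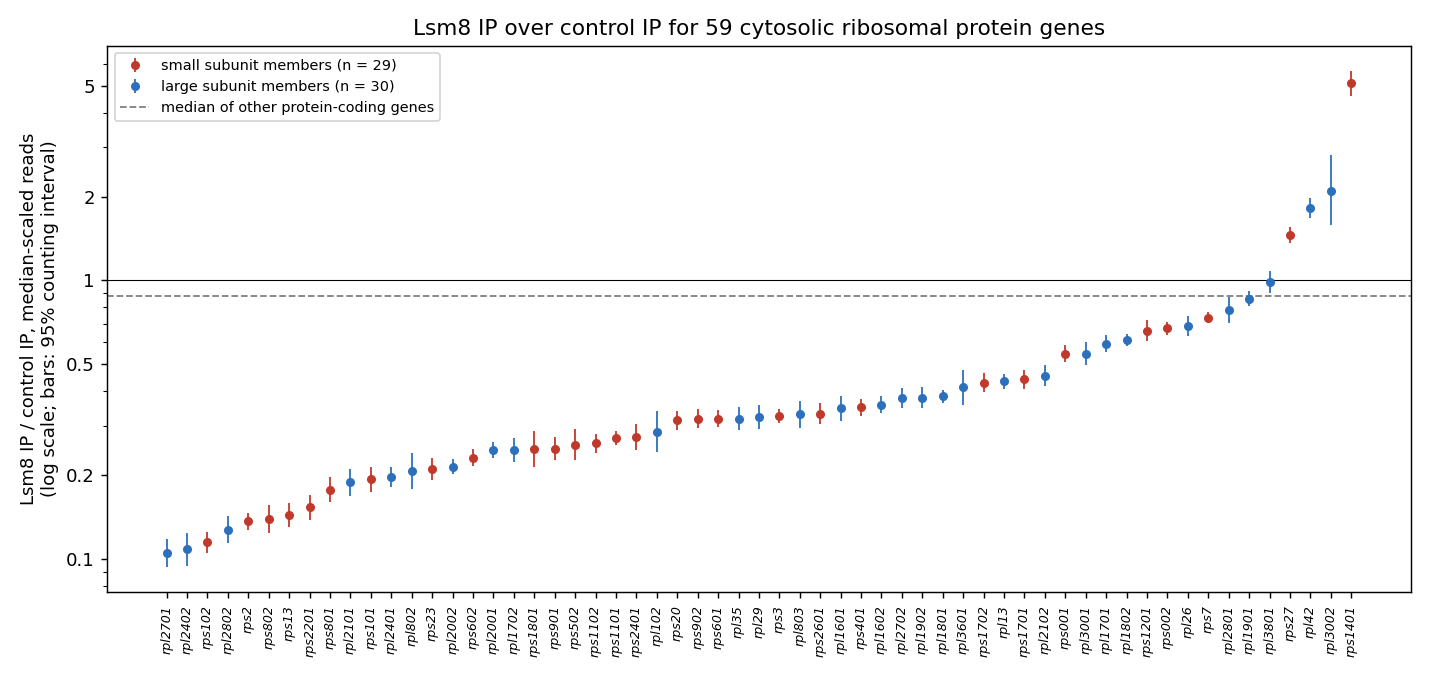
Ratio of median-scaled reads, Lsm8 IP over control IP (y axis, log scale), for each of 59 members (x axis, ordered by ratio), with 95% counting intervals as bars, small subunit genes in red and large subunit genes in blue. The dashed line is the median of 4582 other protein-coding genes (0.876), and 55 of the 59 plotted members have a ratio below 1.

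As shares of all reads in genes, the members held 1.24% of the Lsm8 IP (81761 reads, interval 1.23% to 1.25%) and 8.66% of the control IP (81595 reads, interval 8.60% to 8.72%). The numbers of reads were thus nearly equal although the Lsm8 library was far larger. When U4 and U6 were left out of the totals, the shares were 4.13% of the Lsm8 IP and 8.82% of the control IP. All 141 cytosolic ribosomal protein genes together made up 2.63% of the Lsm8 IP and 17.5% of the control IP.

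The lowest ratio belonged to rpl2701 (SPBC685.07c), which encodes large subunit protein eL27, with 370 Lsm8 IP reads and 1402 control IP reads (ratio 0.105, interval 0.0934 to 0.118). The gene for eL24, a protein at a bridge between the subunits, had a similar ratio: rpl2402 counted 274 Lsm8 IP reads and 1005 control IP reads (ratio 0.109). For rps102, which encodes eS1 of the small subunit, there were 681 Lsm8 IP reads and 2356 control IP reads (ratio 0.115). The intervals of these 3 genes overlap each other and that of rpl2802 (0.114 to 0.142), so their order is not resolved by the counts. By the ratio alone, rpl2802 (uL15) came next, with 424 Lsm8 IP reads and 1324 control IP reads (ratio 0.128). Then came rps2 (uS5), with 1028 and 2990 reads in the same order (ratio 0.137). rps802, a gene for eS8, followed with 383 Lsm8 IP reads and 1095 control IP reads (ratio 0.139). Each of these 6 genes had fewer reads in the Lsm8 IP than in the control IP even before scaling to library size. The same held for all further members up to rpl1801 (ratio 0.384).

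The highest ratio was that of rps1401 (SPAC3H5.05c), a gene for uS11 of the small subunit, which had 5089 Lsm8 IP reads and 398 control IP reads (ratio 5.09, interval 4.60 to 5.65). No other member had as many reads in the Lsm8 IP. Second was rpl3002 (SPAC1250.05), for eL30, with 316 Lsm8 IP reads and 60 control IP reads (ratio 2.10, interval 1.59 to 2.81). It is the member with the fewest control reads, and the interval of its ratio reaches below 2. rpl42 (SPAC15E1.03), for eL42, a protein near the exit site of tRNA, had 3101 Lsm8 IP reads and 681 control IP reads (ratio 1.81, interval 1.67 to 1.97). rps27 (SPBC1685.10), for the zinc-binding protein eS27, had 3762 Lsm8 IP reads and 1029 control IP reads (ratio 1.46, interval 1.36 to 1.56). rpl3801 (eL38) had 1683 Lsm8 IP reads and 681 control IP reads (ratio 0.984), and rpl1901 (eL19) had 3445 and 1595 reads in the same order (ratio 0.860). The interval of rps1401 lies above that of every other member, and those of rpl3002 and rpl42 overlap each other.

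The 4 values just inside and just outside the enrichment threshold of a ratio of 2 are thus 5.09 and 2.10 above it and 1.81 and 1.46 below it. Between the extremes, the interquartile range of the ratios was 0.227 to 0.477. Within this range stood, for example, rps3 (uS3, at the mRNA entry channel) at 0.326 and rpl13 (eL13) at 0.434, while rps23 (uS12, at the decoding centre) lay just below it at 0.211. Ratios between 0.5 and 1 were seen for rps001, rpl3001, rpl1701, rpl1802, rps1201, rps002, rpl26, rps7, rpl2801, rpl1901 and rpl3801, with values from 0.546 to 0.984.

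Reads per kilobase of exon in the control IP, which set genes of different length on a common scale, were highest for rps1101 (4894), rpl2002 (4243), rpl1802 (4114) and rpl2001 (3623). These are reads of an IP and not a measure of mRNA abundance in the cell. For rps1101 and rpl1802, a gene on the opposite strand covers the whole gene, and its reads can be counted for both. Their ratios were 0.272, 0.215, 0.610 and 0.246. The lowest values on this scale were those of rpl3002 (107) and rpl102 (425). The members with the most control reads per kilobase were therefore not all among the lowest ratios.

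Up to 5119 control reads, the median ratio of the other protein-coding genes was lower in each bin of more control reads, so the members were compared with other genes of similar control reads, in bins that double from 10 to 19, 20 to 39 reads and so on. The median ratio of the other protein-coding genes was 1.28 in the bin of 10 to 19 reads, 0.504 in that of 640 to 1279 and 0.346 in that of 2560 to 5119, while the 5 and 2 genes of the bins above had medians of 0.670 and 0.668. Against the bin medians of all other protein-coding genes, 42 of 60 members were lower, and the median difference was -0.52 on the log2 scale (0.697-fold). At high reads the compared genes include many other ribosomal protein genes, 33 of 89 in the bin of 640 to 1279. With these left out, an alternative chosen after seeing the data, 45 of 60 members were lower than their bin and the median difference was -0.73 (0.601-fold). The 25 members with 640 to 1279 control reads had a median ratio of 0.331, beside 0.631 for 56 other protein-coding genes that encode no cytosolic ribosomal protein. The 22 members with 1280 to 2559 control reads had 0.317, beside 0.470 for 32 such genes. In the bin of 2560 to 5119 the values were 0.323 for 6 members and 0.353 for 17 such genes. From the bin of 320 to 639 control reads to that of 2560 to 5119, the median of all other protein-coding genes fell from 0.596 to 0.346. The bin medians of the members stayed between 0.317 and 0.344 over the same range. Control reads are also the divisor of the ratio, so depth and ratio are not independent measures. The part of depth in the low ratios was described by these bins but not tested. Left without genes that overlap another gene, the median difference from all other protein-coding genes was -0.23.

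**Figure D3:**
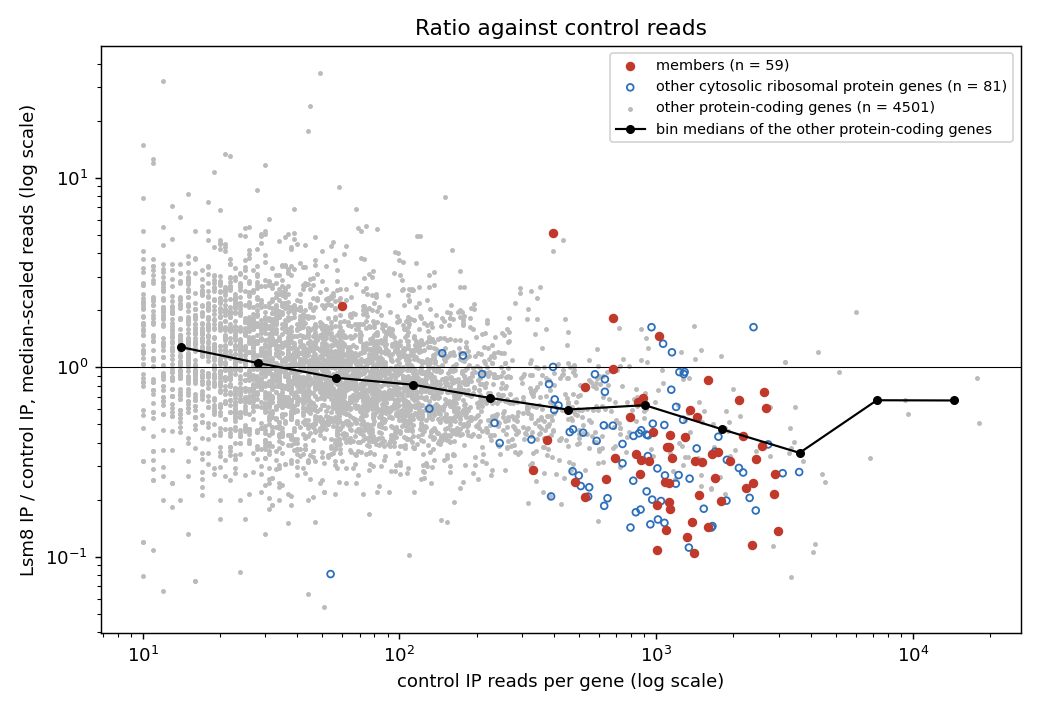
Ratio of median-scaled reads, Lsm8 IP over control IP (y axis, log scale), against control IP reads per gene (x axis, log scale), with 59 members in red, 81 other cytosolic ribosomal protein genes as open blue circles and 4501 other protein-coding genes in grey. The black line joins the medians of the grey genes in doubling bins and starts at 1.28 in the lowest bin. At 640 to 1279 control reads, the median is 0.331 for the members and 0.631 for the grey genes.

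The gene lists for other parts of the translation machinery were read beside the members. The 81 other cytosolic ribosomal protein genes had a median ratio of 0.392, and 57 of them (70.4%) were below 0.5. None of them exceeded 2. Mitochondrial ribosomal protein genes, whose products build the separate ribosome of that organelle, had a median ratio of 0.807 over 58 genes with at least 10 control reads, and 11 (19%) were below 0.5. The 26 translation initiation factor genes had a median of 0.461 and the 7 elongation factor genes one of 0.458.

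Small subunit members had a median ratio of 0.294 and large subunit members one of 0.369, a difference of -0.33 on the log2 scale (small minus large). Ratios below 0.5 were counted in 24 of 30 small and 21 of 30 large subunit genes. Moving every gene of the small subunit to its lower counting bound and every gene of the large subunit to its upper one, or the reverse, gave differences from -0.53 to -0.09. Among the unlisted cytosolic ribosomal protein genes the order was the other way round, with medians of 0.479 for 26 small and 0.312 for 55 large subunit genes. The ranges of the subunits overlap almost wholly, from 0.115 to 5.09 in the small and from 0.105 to 2.10 in the large subunit members.

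Introns were examined because the RNA that defines the Lsm2-8 ring, U6, is part of the spliceosome. The 26 members with an intron in the annotation had a median ratio of 0.369 and the 34 intronless members one of 0.266, a log2 difference of 0.47 (intron-containing minus intronless). It was 0.84 when the members that overlap another gene were left out. Both kinds were found at either end, since rpl2701 (ratio 0.105), rpl42 (1.81), rpl3002 (2.10) and rps27 (1.46) contain introns whereas rps102 (0.115) and rps1401 (5.09) do not. However, rps1401 was the only intronless member above 1, and a gene on the opposite strand covers it wholly. Its reads can thus be counted for both genes. Members with HomolD had a median ratio of 0.331 and those without it one of 0.319. The 34 members with 600 bases of exon or more all had ratios below 1, with 0.860 as the highest, and the 4 members above 1 were all among the 26 shorter ones. Medians of the longer and shorter members were close, at 0.328 and 0.321. Over the 60 members, the log2 ratio had a Spearman rho of -0.16 with exon length, -0.24 with control reads, 0.28 with the number of introns and 0.10 with the share of unique 40-base words, all from the same 2 libraries and given as a description.

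Reads were kept only where they mapped to 1 place, so near-identical copies can lose reads. Every 40-base word of the exons was therefore searched for in the genome. In 50 of 60 members at least 95% of these words occurred once, and in 22 all did. The share was 55.0% for rps502 and 88.2% for rps1401, the member with the highest ratio. How far lost reads moved the ratios of these 2 genes was not tested. The genes for uL2, rpl803 (90.8% of words unique) and rpl802 (88.9%), were among the less unique, and their coding sequences are identical over a run of 89 bases. A stretch of 60 coding bases, positions 4 to 63 from the first base of the start codon, is shown because it enters this run at position 16. Capitals mark the bases that differ between the copies.
rpl803 (SPBC839.04, chromosome II, 601284 to 601343, plus strand): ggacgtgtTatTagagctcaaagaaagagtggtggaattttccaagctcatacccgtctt
rpl802 (SPBC2F12.07c, chromosome II, 1726680 to 1726739, plus strand): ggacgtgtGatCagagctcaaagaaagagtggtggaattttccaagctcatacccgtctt
A read of 40 bases from within such a run cannot be assigned to either copy and was not counted, in either library. rpl803 had 573 Lsm8 IP reads and 689 control IP reads (ratio 0.331), and rpl802 had 275 and 529 reads in the same order (ratio 0.207). Loss of shared reads lowers both libraries of a gene, and how far it moved these ratios was not tested.

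Paralogs were compared in 18 pairs of members, with coding sequences that are 70.9% to 93.0% identical. The counting intervals of the 2 copies did not overlap in 15 pairs, and the ratio of one copy was more than 2-fold that of the other in 6. Pairs of unrelated members were not compared in this way, so these counts are not shown to be particular to paralogs. For scale, the interquartile range of the ratios of all 60 members was 0.227 to 0.477. In 12 pairs both copies had a ratio below 0.5. The counting intervals do not hold the variation between cultures, so a difference between copies here compares 2 genes within the same 2 libraries.

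The widest pair encodes uL15: rpl2801 had 1046 Lsm8 IP reads and 531 control IP reads (ratio 0.784), whereas rpl2802 had 424 and 1324 reads in the same order (ratio 0.128), 6.15-fold apart. Its copies are 85.5% identical in their coding sequence and every 40-base word of either gene is unique. The eL30 pair was 3.84-fold apart, with rpl3002 at 2.10 and rpl3001, which had 1088 Lsm8 IP reads and 793 control IP reads, at 0.546. For eL27, rpl2702 had 1072 Lsm8 IP reads and 1126 control IP reads (ratio 0.379), 3.61-fold above rpl2701 (0.105). In these 3 pairs the copy with the lower ratio had the more control reads. This did not hold for all pairs, since for uL22, eL19 and eL24, for example, the copy with the lower ratio had the fewer.

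Another 3 pairs differed by more than 2-fold, those for eL21, uL22 and eL19. For eL21, rpl2102 had a ratio of 0.455 and rpl2101 one of 0.189. For uL22, which lines the exit tunnel of the large subunit, the ratio was 0.593 for rpl1701 and 0.246 for rpl1702. For eL19, rpl1901 stood at 0.860 and rpl1902 at 0.379. Smaller gaps between intervals were found for eL24 (rpl2401 0.197, rpl2402 0.109), eS1 (rps101 0.194, rps102 0.115), uL2 near the peptidyl transferase centre (rpl803 0.331, rpl802 0.207) and eL18 (rpl1802 0.610, rpl1801 0.384). The pairs for eS6, the target of S6 kinase (rps601 0.319, rps602 0.231), uS4 (rps902 0.319, rps901 0.249), eS8 (rps801 0.178, rps802 0.139), uS2 (rps002 0.674, rps001 0.546) and eL20 (rpl2001 0.246, rpl2002 0.215) differed by 1.38-fold or less. The intervals overlapped for uS17 (rps1101 0.272, rps1102 0.260), uL13 (rpl1602 0.358, rpl1601 0.347) and eS17 (rps1701 0.441, rps1702 0.430). All 6 pairs with more than a 2-fold difference encode large subunit proteins, as do 11 of the 18 pairs compared, and the other 7 encode small subunit proteins.

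**Figure D4:**
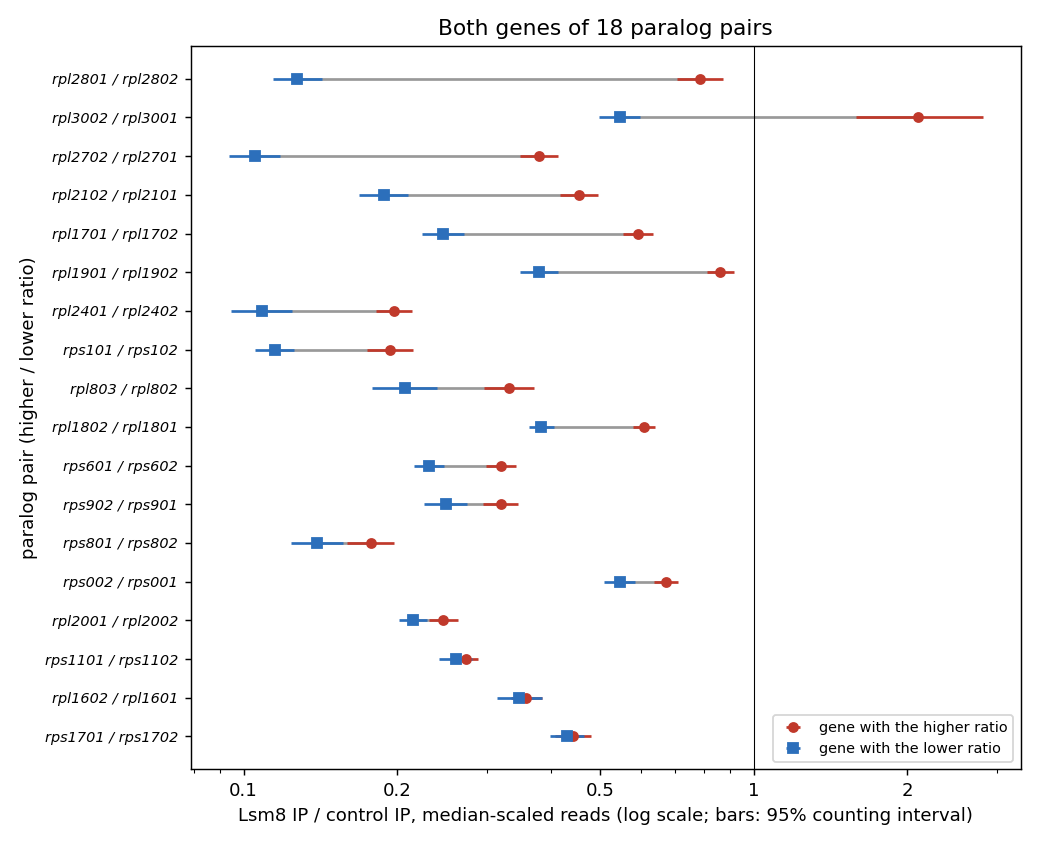
Ratio of median-scaled reads, Lsm8 IP over control IP (x axis, log scale), for both genes of 18 paralog pairs (y axis), with 95% counting intervals as bars, the gene with the higher ratio as a red circle and the other as a blue square. The pairs run from the uL15 genes rpl2801 and rpl2802 at the top (6.15-fold apart) to the eS17 genes rps1701 and rps1702 at the bottom (1.03-fold).

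Strand was ignored in the IP libraries, and 26 members overlap another listed gene. For 11 members another gene covers the whole gene on the opposite strand, and in all 11 the partner had at least as many reads as the member in both IPs. rpl1801 and SPNCRNA.1594 even shared both values, 2491 Lsm8 IP reads and 2585 control IP reads. Reads over such a region were thus counted for both genes, and the RNA they came from cannot be told from these libraries. This holds for rpl2401 with ubp6, rps23 with ice2, rps1102 with SPNCRNA.1015, rps1101 with SPNCRNA.870, rps902 with pdp1, rps2601 with SPNCRNA.625, rpl2702 with SPNCRNA.1245, rpl1802 with SPAPB17E12.14c and rpl3801 with SPBC577.03c. Of the 11 members, 8 had a ratio below 0.5. Other members are covered in part. SPNCRNA.1261 covers 93.5% of rps20 on the opposite strand, with 1199 Lsm8 IP reads and 1511 control IP reads. rps20 itself had 1193 and 1508 reads in the same order. SPNCRNA.1578 covers 75.1% of rpl102 on the opposite strand. Reads over these stretches can be counted for both genes as well. Shorter overlaps are those of rps2 with SPNCRNA.1261, rpl1702 with coy1, rpl2001 with SPNCRNA.741 and rps3 with ptf2. Others are rps1701 with new14, rpl2102 with apc5, rpl3001 with wis4 and rpl1701 with osh2.

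The only enriched member, rps1401, is one of the 11. It lies within aar2, a gene on the opposite strand that encodes a factor of U5 snRNP assembly. aar2 had 5116 Lsm8 IP reads and 436 control IP reads (ratio 4.67), which is 27 more than rps1401 in the Lsm8 IP and 38 more in the control IP. Nearly all reads counted for aar2 are thus matched by reads counted for rps1401, and which of the strands gave the reads of the Lsm8 IP cannot be told apart. Without members that overlap another gene, 0 members were enriched and 24 of the remaining 34 had a ratio below 0.5.

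The RNA-Seq libraries were stranded, and the deposited counts used here cover a list of 40 RNAs, among them the members rps1401 and rpl42. The list is a part of the RNAs in these libraries, so shares over the 40 RNAs are not shares over all genes. Library totals worked back from the deposited average RPKM were between 49448968 and 72951191 reads in genes. rps1401 had 242, 228 and 209 CPM (counts scaled to these totals) in pof8Δ libraries 1 to 3 and 203, 228 and 213 in pof8+ libraries 1 to 3. The means were 226 ± 16.8 in pof8Δ and 215 ± 12.7 in pof8+ cells (SD, n = 3 libraries each), and the groups overlap. On the log2 scale it differed by 0.08 ± 0.10 (SE), with an adjusted p of 0.783 in edgeR's quasi-likelihood test (Benjamini-Hochberg over the 40 RNAs). rpl42 had 528, 570 and 455 CPM in pof8Δ libraries and 421, 439 and 529 in pof8+ libraries, again with overlapping groups. Its means were 517 ± 58.6 in pof8Δ and 463 ± 58.0 in pof8+ cells (SD, n = 3 libraries each), and it differed by 0.16 ± 0.11 on the log2 scale (SE; edgeR adjusted p = 0.424).

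Neither member passed an adjusted p of 0.05, 0 of the 2 had an unadjusted p below it, and DESeq2 called neither. RNA-Seq counts of the other members were not analysed here. Over the 40 RNAs tested, 12.5% passed the adjusted threshold, 2.5% higher and 10% lower in pof8Δ. The median log2 fold change of these RNAs was -0.07. Differences of the size of the standard errors were not detectable with 3 libraries a group, and a p above the threshold does not show that levels were equal. As RPKM, rps1401 stood at 354 in pof8Δ and 336 in pof8+ cells, whereas aar2 stood at 25.5 in pof8Δ and 29.2 in pof8+ cells. aar2 had fewer counts than rps1401 in all 6 libraries, so here reads were not counted for both genes as in the IPs. The other ribosomal protein genes with counts, rps3002 and rpl402, had log2 fold changes of -0.13 (adjusted p = 0.615 from edgeR) and -0.18 (adjusted p = 0.286 from edgeR).

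**Figure D5:**
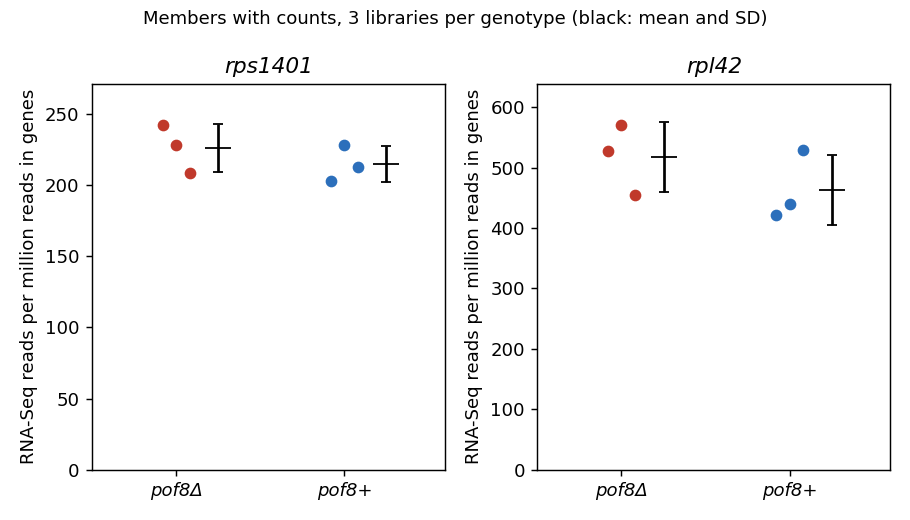
RNA-Seq counts per library total, as CPM (y axes, starting at 0) for rps1401 and rpl42, with 3 pof8Δ libraries in red at the left and 3 pof8+ libraries in blue at the right of each panel, and the mean and SD in black. For rps1401 the means are 226 and 215 and for rpl42 they are 517 and 463, in the same order, and the libraries of the genotypes overlap for both genes.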

How the data were processed

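RNA from 1 Lsm8-cMyc IP and 1 control IP was sequenced by the authors as 40-base unstranded reads, and RNA-Seq of 3 pof8Δ and 3 pof8+ samples as 100-base stranded reads. Reads were aligned to ASM294v2 with STAR 2.5.2b per the labels. For the IPs the authors deposited a signal per gene (Lsm8 IP reads divided by 96) and the ratio of the scaled IP and control values. The signal was multiplied by 96, and control reads were recovered as 37 times signal over ratio. All 7014 Lsm8 IP values and all 6323 control values were whole within 1e-06 reads. For 98 genes seen only in the control IP the reads are not given by these values. For RNA-Seq the authors deposited counts of 40 RNAs and an average RPKM over the libraries. Library totals were solved from the average RPKM and returned whole gene lengths for all 40 RNAs within 0.001 bases. The deposited columns of the authors' own comparison (fold changes, likelihood ratios, p-values) were not used.

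Counts were tested with edgeR 4.0.16 (quasi-likelihood, library totals as sizes, Benjamini-Hochberg, at least 10 counts in 3 libraries, R 4.3.3), after a check on simulated data. DESeq2 1.42.0 was an alternative. Ratios, overlaps, 40-base words, motifs and alignments of coding sequences used Python 3.11.15, SciPy 1.17.1 and Biopython 1.88 with RefSeq ASM294v3, to which 6643 of 7014 identifiers and all members matched. Gene lengths and overlaps are those of this annotation, which can differ from the one used for counting.

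The members, lists and tests were chosen with earlier results of these data known. The text names members past the enrichment thresholds, the 6 highest and 6 lowest ratios, the 4 with most control reads per kilobase, members with RNA-Seq counts, paralog pairs with separate intervals and genes that overlap these. Further members were named with their values known. Of the 60 members, 1 is counted in totals and medians but is not reported here by name. Alternatives were run for the scaling, minimum reads, thresholds, a pseudocount of 0.5, overlapping genes, the RNA-Seq normalization and test, a block for replicate number, and single libraries omitted.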

Additional observations from a re-analysis of the deposited data

How the results depend on the processing

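Scaling by total counts moved the median log2 ratio of the members to -3.10, with 0 enriched members and 0 with a ratio above 2. The ratios of rpl3002 (0.751), rpl42 (0.650) and rps27 (0.521) then fell below 1, whereas that of rps1401 (1.82) did not. Total counts without U4 and U6 gave a median of -1.39 and 2 enriched members, and rpl3801 (1.15) and rpl1901 (1.01) rose above 1. The other scalings changed no count by more than 1.5 times. Without genes that overlap another gene, 0 members were enriched, 1 had a ratio above 2, 24 of 34 had one below 0.5, the difference from genes of similar control reads was -0.23 and that of intron-containing from intronless members 0.84. With other cytosolic ribosomal protein genes left out of the compared genes, chosen after seeing the data, the difference from genes of similar control reads was -0.73. With the lower counting bound required to pass 2, 1 member was counted. The causes of these shifts were not tested. Alternatives for the count of ratios below 0.5 were likewise chosen after seeing the data.

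In RNA-Seq, 0 of the 2 members passed under any of the 11 alternatives. Leaving out single libraries gave log2 fold changes of 0.02 to 0.13 for rps1401 and 0.08 to 0.27 for rpl42, and TMM factors over the listed RNAs 0.17 and 0.26. A fit with a replicate block gave 0.07 for rps1401 and 0.16 for rpl42, and 0 members were called. Same-numbered libraries correlated in their deviations at 0.32, -0.68 and 0.18, so the numbers were not taken as pairs.

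Depth in the control IP (60 to 2990 reads per member) limits the ratio of rpl3002 most.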

Other observations

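The highest ratio among the 81 other cytosolic ribosomal protein genes was 1.63, and 7 of 81 were at 1 or above. Of the 26 members that overlap another gene, 21 had a ratio below 0.5, against 24 of the 34 without overlap. Members on chromosomes I, II and III had median ratios of 0.272 (29 genes), 0.349 (20 genes) and 0.319 (11 genes).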
